A study of Mus musculus with 51 samples.

Results

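The genes described here are the WNT receptors and co-receptors Lrp4, Lrp5, Lrp6, Fzd1 and Ror2, the signal carrier Ctnnb1 (beta-catenin), the nuclear partners Lef1 and Tcf7, and the pathway targets Axin2 and Nkd1. They were chosen by name for their place in the pathway, 10 genes in all, with earlier results of these data known, and the rule used no measured value. Of these, 9 were measured among 18194 genes, by 19 probe sets, and Tcf7 is not analysed here. Lrp4 and Lrp5 had 1 probe set each, Lrp6, Fzd1, Ror2, Lef1 and Axin2 had 2 each, Ctnnb1 had 3 and Nkd1 had 4.

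The study profiled limb buds of wild-type FVB mouse embryos on whole-genome Affymetrix mouse arrays, with time-matched whole embryos as controls. The 51 arrays held 3, 5, 4, 5 and 5 forelimb samples at the 5 daily stages between embryonic days E9.5 and E13.5, given in that order. They also held 4, 5, 5 and 5 hindlimb samples from E10.5 to E13.5, and 2 whole-embryo samples at each of the 5 stages. No group carried a mutation or treatment, each limb sample came from 1 embryo without pooling, and the limb samples of a stage came from 1 litter, so that stage and litter cannot be told apart. The limb was taken whole, so each sample mixed mesenchyme, ectoderm, vessels, blood and, later, cartilage and muscle. Levels are given as log2 of the deposited RMA intensity, and a gene with several probe sets has their mean. A level can be compared between samples but not between genes. A gene is called changed at a fold-change of 2 or more with an adjusted p-value under 0.001 in limma, over all 18194 genes.

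WNT proteins bind Frizzled receptors together with the co-receptors Lrp5 and Lrp6. This stops the destruction complex, built on Axin, from marking beta-catenin for degradation, and beta-catenin then enters the nucleus and works with Lef1 and Tcf proteins to switch on target genes, among them Axin2 and Nkd1, which feed back to damp the signal. Ror2 is a receptor for Wnt5a in signalling that does not use beta-catenin, and Lrp4 antagonises the beta-catenin branch in the limb. In the mouse limb bud this pathway is needed for outgrowth and for the apical ectodermal ridge, the signalling rim at the tip of the bud.

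The limb labels were checked against Tbx5, which marks the forelimb, and Tbx4 and Pitx1, which mark the hindlimb. From E10.5 on, Tbx5 lay between 8.31 and 9.94 in the 19 forelimb arrays and between 5.11 and 6.27 in the 19 hindlimb arrays. Tbx4 lay between 5.88 and 7.10 in forelimbs and between 8.91 and 10.2 in hindlimbs, and Pitx1 between 4.47 and 5.60 in forelimbs and between 9.81 and 10.9 in hindlimbs. For 2 limb arrays of E11.5 and E12.5 the titles and the other labels disagreed, and the titles were used. By their control probe sets the arrays fell into 2 sets, which no label names: 38 limb arrays of E10.5 to E13.5, and 13 others, namely the 10 whole embryos and the 3 E9.5 forelimbs. The Dap labelling control read 2.68 to 3.59 in the 38 and 10.6 to 13.04 in the 13. The gap between the 3′ and 5′ Gapdh probe sets, which widens as RNA or its copy is shortened, was −0.10 to 0.16 in the 38 and 1.48 to 2.85 in the 13. Limb against whole embryo from E10.5, and E10.5 against E9.5 forelimb, cross this division, so that limb and array set cannot be told apart there. E9.5 forelimb against whole embryo, forelimb against hindlimb, and the later limb stages lie within one set.

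In the earliest forelimb bud, where both sides of the comparison share an array set, Lef1 stood out among the 9 genes. Its level was 9.03, 9.22 and 9.06 in the E9.5 forelimbs, against 7.67 and 6.48 in E9.5 whole embryos. Every forelimb lay above both whole embryos, which themselves lay far apart. The low one, replicate 2, had the widest Gapdh and Actb 3′ to 5′ gaps of all 51 arrays (2.85 and 2.07), against 1.48 to 1.73 and 1.11 to 1.38 in the E9.5 forelimbs, and the 2 whole embryos had the lowest correlation of any replicate pair (r = 0.969). Replicate 1 also lay outside the forelimbs in Gapdh gap (2.03), though not in Actb gap (1.30). Dap read 11.94 and 11.68 in whole embryos 1 and 2, against 12.70 to 13.04 in the forelimbs. Gapdh gap and Dap thus differed between the tissues within the set, and leaving out replicate 2 does not remove this. Their part in the E9.5 values was not tested further. The log2 fold-change of Lef1 was 2.03 ± 0.19 (SE, adjusted p = 1.64e-11 in limma, n = 3 and 2), a 4.07-fold higher level. Without whole-embryo replicate 2 it was 1.43 (adjusted p = 1.42e-07), and fitted on these 2 groups alone the same comparison had an adjusted p of 0.0418, above the threshold. Both Lef1 probe sets were called, 1421299_a_at at 2.57 and 1454734_at at 1.48. In bulk tissue, more cells of a type and more RNA per cell cannot be told apart, and the 5 limb mesenchyme markers (Prrx1, Prrx2, Twist1, Msx1 and Tbx15) were called higher in the same comparison, 5 of 5, while 5 of 6 neural and 4 of 4 heart markers were lower. The summed mesenchyme level was 12.46 to 12.47 in forelimbs and 9.88 to 11.3 in whole embryos. Their part in the Lef1 value was not tested.

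Lef1 was the 1 of 9 genes called at E9.5, beside 2.08% of all genes called higher in the forelimb. None of the 9 was called lower, beside 1.61% of all genes. With both whole embryos, the median log2 fold-change was 0.54 over the 9 and 0.08 over all genes. The medians without whole-embryo replicate 2 were not tested, and Fzd1, Nkd1, Ctnnb1 and Axin2 were lower without it, as given below. Fzd1 (0.79), Nkd1 (0.56) and Ctnnb1 (0.49) had adjusted p-values under 0.001 but less than a 2-fold difference. Without whole-embryo replicate 2, Nkd1 was 0.11 (adjusted p = 0.639) and Ctnnb1 0.35 (adjusted p = 0.041), while Fzd1 was 0.63 (adjusted p = 0.000695). The adjusted p of Nkd1 also lay above 0.001 without any 1 of the 3 forelimbs (0.00125 to 0.00325), and that of Ctnnb1 without forelimb replicate 3 (0.00111). Among single probe sets, 4 of 19 were called higher (2.84% of all probe sets): the 2 of Lef1, Fzd1 1437284_at at 1.05 and Nkd1 1417278_a_at at 1.58. The Nkd1 probe set read 8.39, 8.38 and 8.35 in forelimbs, against 8.01 and 5.58 in whole embryos. The forelimbs lay close together and above both whole embryos, of which one sat just beneath them and the other far lower. For Axin2 the 3 forelimbs (7.43, 7.46 and 7.34) overlapped the whole embryos (7.43 and 6.21), and the log2 fold-change of 0.59 became −0.02 without whole-embryo replicate 2.

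From E10.5 to E13.5, Ctnnb1, Lef1 and the co-receptor Lrp6 were called higher in both limbs than in whole embryos at every stage. Lrp5 and Lrp4 were called higher in both limbs to E12.5, Lrp5 also in the E13.5 hindlimb, and Fzd1 to E11.5, whereas Ror2 was called at no stage. In the forelimb 6, 7, 5 and 3 of 9 genes were called higher at E10.5, E11.5, E12.5 and E13.5, beside 10.49%, 11.7%, 8.52% and 5.54% of all genes. In the hindlimb 6, 6, 5 and 4 of 9 were called higher, beside 9.77%, 11.8%, 7.11% and 6.1% of all genes. None was called lower, where 3.44%, 3.64%, 5.44% and 8.12% of all genes were lower in the forelimb and 3.41%, 3.95%, 5.43% and 8.35% in the hindlimb. With E9.5, 43 of the 81 comparisons were called, each of them higher. Where each gene was represented by its probe set of highest mean instead, 20 were called, and the sign turned in some comparisons of Ctnnb1, Axin2 and Fzd1. The median over the 9 genes lay between 0.85 and 1.76 in these 8 comparisons, and that over all genes between −0.08 and 0.09. Their p-values use 1 spread shared by all 14 groups, and the 2 whole embryos of a stage can spread more than the limbs. For Lef1 the whole-embryo SD was 0.11, 0.45, 0.41 and 0.0057 from E10.5 to E13.5, against 0.05 to 0.24 in limbs. These 8 comparisons all cross the array sets, and 5 of the 19 probe sets (26.3%) lay higher on every one of the 38 late limb arrays than on all 13 others, as did 6.82% of all probe sets. The 2 sets differ in tissue as well as in these control readings, and the share of each in these values cannot be told apart. At E10.5 the 5 limb mesenchyme markers were higher in both limbs, 5 of 5, with a summed level of 12.47 to 12.61 in forelimbs and 10.2 to 10.6 in whole embryos, while the 6 neural and 4 heart markers were all lower in both. Their part in the values of the 9 genes was not tested.

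**Figure D1:**
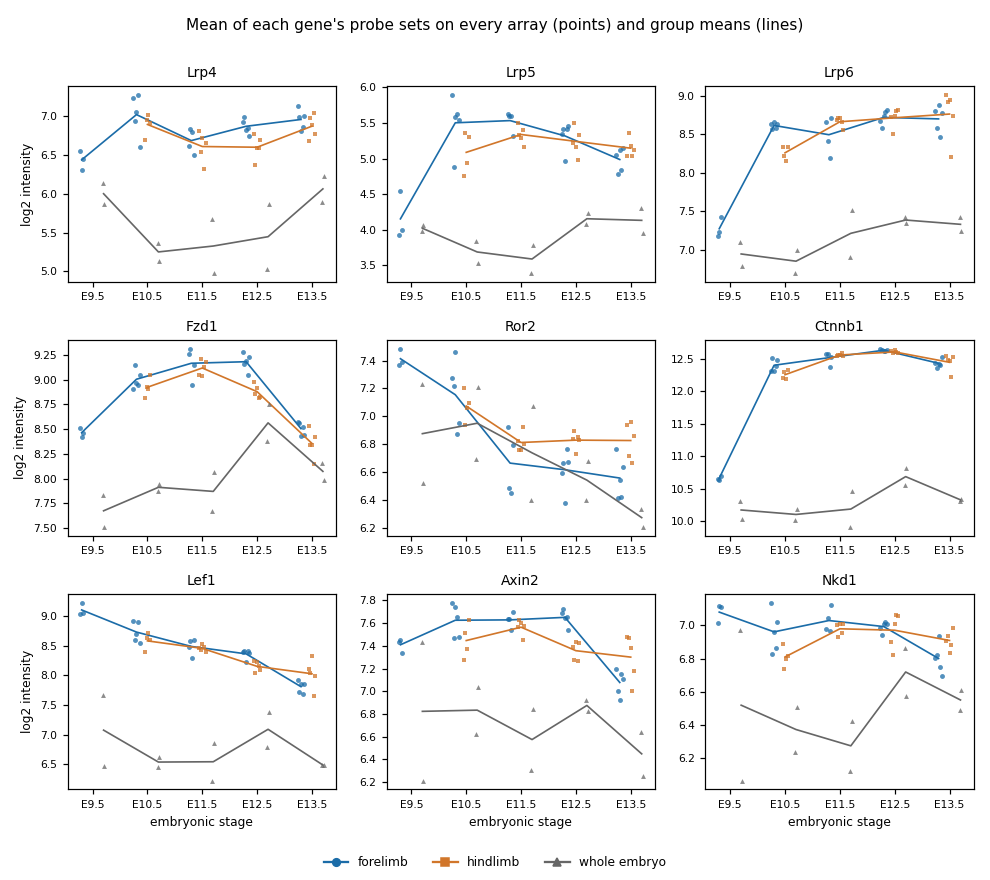
Log2 RMA intensity (vertical axis) of the 9 measured genes against embryonic day (horizontal axis), with a point for each array and a line through the group means for forelimb, hindlimb and whole embryo. Lef1 and Ctnnb1 in the limb lie above whole embryo at every stage shown, Lef1 declines in the limb towards E13.5, and the forelimb and hindlimb points lie close together for all 9 genes.

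Among the co-receptors, Lrp6, which with Lrp5 is required for beta-catenin signalling, was higher at all 8 late stage and limb combinations. At E10.5 Lrp6 read 8.63, 8.57, 8.66, 8.58 and 8.63 in forelimbs and 8.33, 8.22, 8.15 and 8.33 in hindlimbs, against 6.70 and 7.001 in whole embryos. The limb arrays were tightly grouped and lay well clear of the whole embryos. On probe set 1451022_at all 38 late limb arrays lay above all 13 others, by 1.85 on average, and on 1428500_at the sets overlapped (1.06). The log2 fold-change of Lrp6 at E10.5 was 1.77 ± 0.15 in the forelimb (SE, adjusted p = 5.4e-14) and 1.41 ± 0.15 in the hindlimb (SE, adjusted p = 9.43e-11). The other 6 values lay between 1.28 and 1.45. At E9.5 it had been 0.33 and was not called. The Lrp6 value at E11.5 in the forelimb was 0.98, short of 2-fold, without whole-embryo replicate 1.

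Lrp5 read 5.89, 4.876, 5.59, 5.62 and 5.53 in E10.5 forelimbs, against 3.84 and 3.53 in whole embryos. One forelimb was lower than the other 4, but none reached down to the whole embryos. Lrp5 was low throughout, with its 1 probe set at 3.39 to 5.89 over all arrays, against array medians of 5.21 to 5.42. The study also takes Lrp5 as an example of low expression. All 38 late limb arrays lay above all 13 others on this probe set (by 1.30 on average). The log2 fold-change of Lrp5 was 1.82 ± 0.18 in the E10.5 forelimb (SE, adjusted p = 9.68e-12). It was greatest at 1.95 in the E11.5 forelimb, and was 0.86 in the E13.5 forelimb, short of 2-fold. In the E13.5 hindlimb it was 1.01, and it was short of 2-fold without whole-embryo replicate 2 (0.84) or without hindlimb replicate 2 (0.96). Lrp4 read 7.22, 6.94, 7.05, 7.27 and 6.60 in E10.5 forelimbs and 6.68, 6.95, 7.01 and 6.91 in E10.5 hindlimbs, against 5.36 and 5.14 in whole embryos. Both limbs lay more than a unit above the whole embryos, and the 2 limbs overlapped. The differences were 1.76 ± 0.17 (SE, adjusted p = 2.41e-12) and 1.64 ± 0.17 (SE, adjusted p = 5.51e-11), and at E13.5 they were 0.89 and 0.81, short of 2-fold. Lrp4 in the hindlimb was short of 2-fold without whole-embryo replicate 2 at E11.5 (0.93) and without replicate 1 at E12.5 (0.73).

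Fzd1, a Frizzled receptor, was called at E10.5 and E11.5 in both limbs and at no later stage. At E11.5 it read 9.26, 9.31, 8.94 and 9.15 in forelimbs and 9.04, 9.21, 9.04, 9.12 and 9.17 in hindlimbs, against 7.67 and 8.07 in whole embryos. The limbs overlapped each other and lay above the whole embryos. Fzd1 differed by 1.30 ± 0.11 in the forelimb (SE, adjusted p = 3.52e-14) and 1.25 ± 0.10 in the hindlimb (SE, adjusted p = 3.22e-14). By E13.5 it was 0.43 and 0.28. At E10.5 the hindlimb value of 1.01 was short of 2-fold without whole-embryo replicate 1 (0.98) or hindlimb replicate 4 (0.97). Ror2 was called in none of the 9 limb comparisons, and its log2 fold-change lay between −0.07 and 0.55. Its probe set 1423428_at had adjusted p-values under 0.001 in 7 of the 9, with differences of at most 0.81.

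Ctnnb1, which encodes beta-catenin, gave the greatest limb against whole-embryo difference of the 9 from E10.5 on. At E10.5 it read 12.31, 12.51, 12.32, 12.39 and 12.49 in forelimbs, against 10.02 and 10.19 in whole embryos. The forelimbs were all within a narrow range and far above the whole embryos. Ctnnb1 differed by 2.30 ± 0.09 (SE, adjusted p = 2.22e-24), and it lay between 1.92 and 2.37 at the other 7 late comparisons, with no overlap in any. This came from 2 of its 3 probe sets. Probe set 1430533_a_at read 11.25, 11.66, 11.44, 11.48 and 11.67 in E10.5 forelimbs, against 7.43 and 7.58 in whole embryos, a difference of 3.99. Probe set 1450008_a_at differed by 2.66. The third, 1420811_a_at, read 13.55, 13.57, 13.49, 13.52 and 13.55 in forelimbs, against 13.15 and 13.43 in whole embryos, and its difference of 0.24 was not called (adjusted p = 0.0177). It was called in none of the 9 limb comparisons, where it lay between −0.09 and 0.54. The 2 that were called were also the 2 on which all 38 late limb arrays lay above all 13 others, by 3.68 and 2.49, while 1420811_a_at differed between the sets by 0.15.

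Lef1 was called in all 9 limb comparisons, the only one of the 9 genes of which this held. At E10.5 it read 8.92, 8.59, 8.69, 8.89 and 8.55 in forelimbs and 8.39, 8.63, 8.71 and 8.60 in hindlimbs, against 6.46 and 6.62 in whole embryos. The limbs overlapped and sat far above the whole embryos. The log2 fold-change was 2.19 ± 0.17 in the forelimb (SE, adjusted p = 1.15e-14) and 2.04 ± 0.18 in the hindlimb (SE, adjusted p = 2.92e-13). At E12.5 it was 1.27 and 1.06, and without whole-embryo replicate 1 of that stage these became 0.98 and 0.77, short of 2-fold. The 2 probe sets pointed the same way throughout but differed in size. At E10.5 in the forelimb, 1421299_a_at differed by 3.31 and 1454734_at by 1.07, and at E12.5 by 2.24 and 0.30. The first was called in all 9 comparisons and the second in 3, the forelimb at E9.5 and E10.5 and the hindlimb at E13.5.

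Of the feedback targets, Axin2 was called once and Nkd1 never. Axin2 in the E11.5 forelimb read 7.64, 7.63, 7.54 and 7.70, against 6.30 and 6.85 in whole embryos. The forelimbs lay together, above the more widely spaced whole embryos. The log2 fold-change was 1.05 ± 0.17 (SE, adjusted p = 8.32e-07), and 0.78 without whole-embryo replicate 1, short of 2-fold. Its 2 probe sets did not move together. Probe set 1421341_at was called in all 8 late comparisons, with differences of 1.29 to 1.97, and 1436845_at in none, with differences of −0.64 to 0.25. All 38 late limb arrays lay above all 13 others on the first (by 1.54 on average), and the sets overlapped on the second (−0.38). Nkd1 as a gene differed by 0.25 to 0.76 in the 9 comparisons. Its probe set 1417278_a_at was called higher in both limbs at E10.5 and E11.5, by 1.35 and 1.81 in the forelimb and 1.33 and 1.77 in the hindlimb, and its other 3 probe sets in no comparison.

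**Figure D2:**
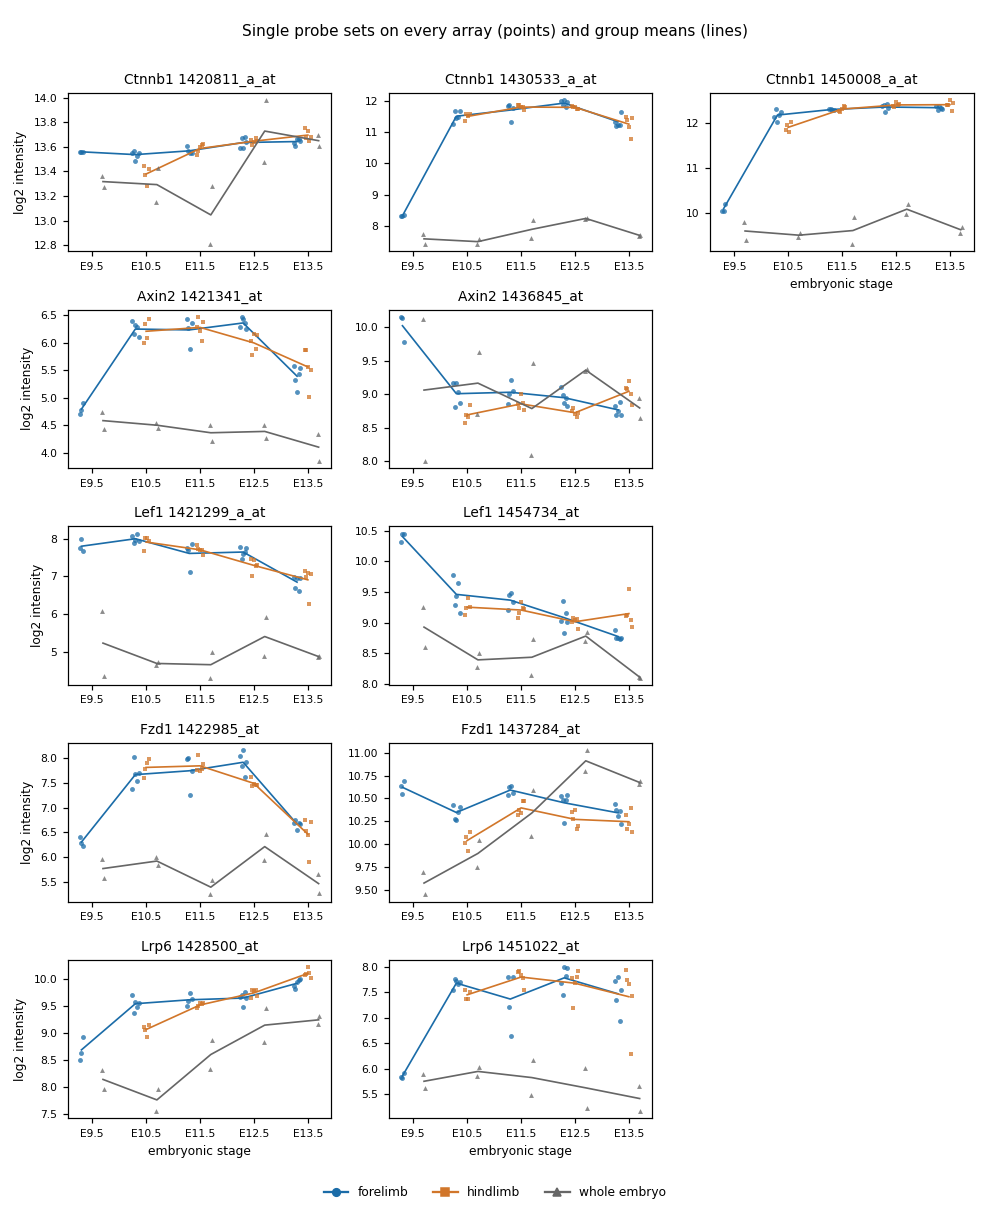
Log2 RMA intensity (vertical axis) of single probe sets of Ctnnb1, Axin2, Lef1, Fzd1 and Lrp6 against embryonic day (horizontal axis), with a point for each forelimb, hindlimb and whole-embryo array. The Ctnnb1 probe sets 1430533_a_at and 1450008_a_at separate the late limb arrays from all others, and 1420811_a_at does not.

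Taken by single probe set, 11, 10, 8 and 6 of 19 were called higher in the forelimb from E10.5 to E13.5, beside 14.5%, 15.6%, 12.9% and 10.2% of all probe sets. In the hindlimb 10, 9, 8 and 7 were called higher, beside 13.7%, 15.9%, 11.2% and 10.6%. None was called lower. Fzd1 1437284_at had lower limb levels with an adjusted p under 0.001 in the E12.5 forelimb (−0.46) and in the E12.5 and E13.5 hindlimb (−0.64 and −0.43), while its other probe set, 1422985_at, differed by 1.70, 1.27 and 0.99 in the same comparisons. The direction for Fzd1 at these stages therefore differed between its probe sets. For Axin2 in E12.5 limbs 1436845_at differed by −0.41 and −0.64, neither of them called, against 1.97 and 1.60 for 1421341_at.

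**Figure D3:**
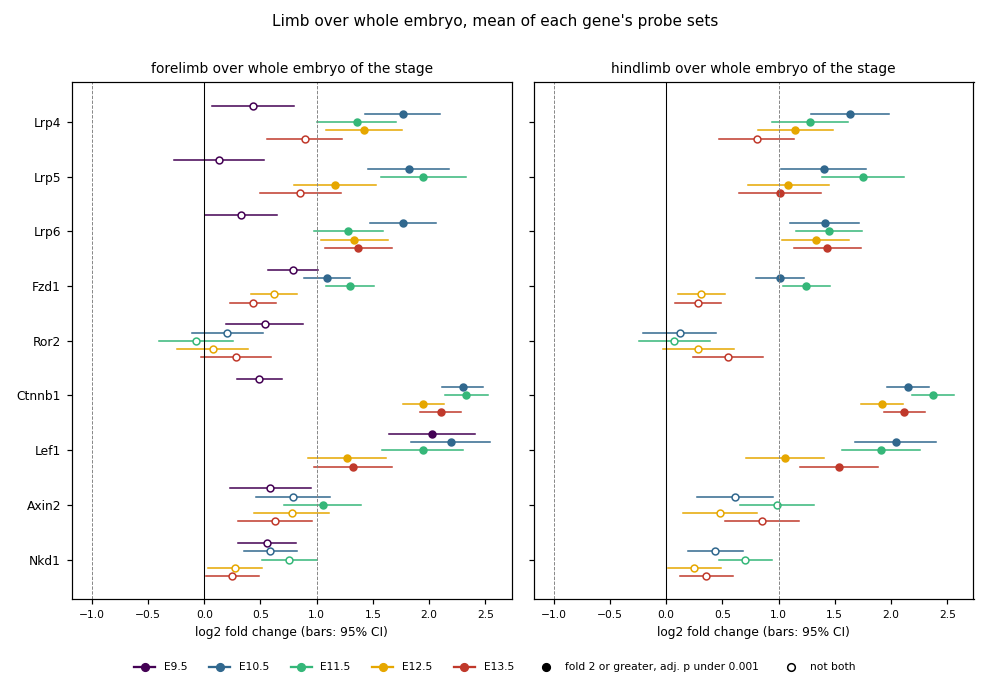
Log2 fold-change of forelimb and hindlimb over whole embryo (horizontal axis) for the 9 genes and each stage, with 95% confidence intervals. Filled points have a fold-change of 2 or more and an adjusted p under 0.001, and there are 43 of them among 81, with Lef1 filled in all 9 comparisons and Ror2 and Nkd1 in none.

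Within the forelimb, 3 of the 9 genes were called higher at E10.5 than at E9.5, and none lower, beside 5.74% and 1.8% of all genes. These were Ctnnb1 (1.74 ± 0.08 SE, adjusted p = 5e-22), Lrp5 (1.35 ± 0.16 SE, adjusted p = 8.66e-10) and Lrp6 (1.34 ± 0.13 SE, adjusted p = 4.17e-12). Lrp6 read 8.63, 8.57, 8.66, 8.58 and 8.63 at E10.5, against 7.17, 7.22 and 7.42 at E9.5. This comparison crosses the array sets. For Ctnnb1, probe sets 1430533_a_at and 1450008_a_at were higher at E10.5 by 3.17 and 2.07, and 1420811_a_at differed by −0.02. For Axin2, probe set 1421341_at was called higher (1.45) and 1436845_at lower (−1.02), and for Fzd1, 1422985_at was called higher (1.36) while 1437284_at differed by −0.28. In all, 6 of the 19 probe sets were called higher and 1 lower, beside 9.75% and 2.95% of all probe sets. Lef1 1454734_at read 9.78, 9.29, 9.43, 9.65 and 9.15 at E10.5, against 10.31, 10.45 and 10.45 at E9.5. Each E10.5 forelimb lay beneath each E9.5 forelimb, and the difference of −0.94 (adjusted p = 6.13e-08) fell short of 2-fold.

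From E10.5 to E13.5 all limb arrays belong to one set, although the E13.5 arrays differed from those of E12.5 and E10.5 in one sign of RNA quality. The Actb 3′ to 5′ gap was 0.36 to 0.62 on the E13.5 limb arrays, against 0.20 to 0.27 on those of E12.5 and 0.21 to 0.35 on those of E10.5, and the array medians were 5.37 to 5.42, against 5.27 to 5.34 and 5.21 to 5.29. On the E11.5 limb arrays the gap was 0.19 to 0.26, except for 0.70 in forelimb replicate 3, wider than on any E13.5 limb array. The part of these readings in the E13.5 values was not tested. Lef1 and Fzd1 were lower in both limbs at E13.5 than at E10.5, and Axin2 and Ror2 in the forelimb, all by less than 2-fold. None of the 9 genes was called in either limb in limma, where 5.43% and 5.13% of all genes were called higher and lower in the forelimb and 5.99% and 5.16% in the hindlimb. At an unadjusted p under 0.05 there were 5 of 9 in the forelimb and 4 of 9 in the hindlimb, beside 11194 and 11064 of all 18194 genes. By adjusted p under 0.001 alone, 4 of 9 were lower and 0 higher in the forelimb, beside 26% of all genes lower, and 2 lower and 1 higher in the hindlimb, beside 23.8% and 16.4% of all genes. The median of the 9 was −0.50 in the forelimb and −0.02 in the hindlimb, against −0.03 and −0.08 over all genes.

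Lef1 read 7.93, 7.72, 7.85, 7.68 and 7.86 in E13.5 forelimbs, against 8.92, 8.59, 8.69, 8.89 and 8.55 in E10.5 forelimbs. All E13.5 forelimbs lay beneath all E10.5 forelimbs. Lef1 thus differed by −0.92 ± 0.13 (SE, adjusted p = 5.08e-08), and it was −1.06 and past the 2-fold line where each array was centred on its median, a scaling that moves the median of all genes by −0.137 here. In the hindlimb Lef1 read 8.11, 8.05, 8.32, 7.65 and 7.997 at E13.5, against 8.39, 8.63, 8.71 and 8.60 at E10.5. The groups were separate but close, and E13.5 replicate 4 was the lowest. The difference was −0.55 ± 0.14 (SE, adjusted p = 0.000625), and without that replicate −0.46 (adjusted p = 0.00471). Its adjusted p also lay above 0.001 without any 1 of 5 other hindlimb arrays, at 0.00123 to 0.00378. Probe set 1421299_a_at of Lef1 was called lower in both limbs, by −1.15 in the forelimb and −1.003 in the hindlimb, whereas 1454734_at differed by −0.69 and −0.10.

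Fzd1 read 8.57, 8.56, 8.43, 8.52 and 8.44 in E13.5 forelimbs, against 9.28, 9.16, 9.19, 9.05 and 9.22 in E12.5 forelimbs. Every E13.5 value was lower than every E12.5 value. The difference was −0.68 ± 0.08 (SE, adjusted p = 8.91e-10), and in the hindlimb −0.52 ± 0.08 (SE, adjusted p = 4.32e-07). The difference came from probe set 1422985_at. That probe set read 6.69, 6.75, 6.54, 6.69 and 6.66 in E13.5 forelimbs, against 8.03, 7.83, 8.15, 7.62 and 7.91 in E12.5 forelimbs. In hindlimbs it read 6.74, 6.52, 6.45, 5.90 and 6.71 at E13.5, against 7.61, 7.43, 7.47, 7.46 and 7.45 at E12.5. In both limbs the E13.5 group lay wholly beneath the E12.5 group. It was called lower in the forelimb (−1.24 ± 0.13 SE, adjusted p = 2.13e-10) and in the hindlimb (−1.02 ± 0.13 SE, adjusted p = 3.45e-08), the 1 of 19 probe sets called in each, beside 2.68% and 1.08% of all probe sets lower. The other Fzd1 probe set, 1437284_at, differed by −0.11 and −0.03.

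In the same forelimb step Axin2 and Lef1 were lower too. Axin2 read 7.20, 7.003, 6.92, 7.15 and 7.11 in E13.5 forelimbs, against 7.69, 7.73, 7.65, 7.65 and 7.54 in E12.5 forelimbs. The 2 groups were well apart. The difference was −0.57 ± 0.12 (SE, adjusted p = 0.000141), and that of Lef1 was −0.55 ± 0.13 (SE, adjusted p = 0.000442). The Lef1 value passed 0.001 only narrowly, with an adjusted p of 0.00116 to 0.002 without any 1 of 6 arrays. In the hindlimb the same step gave −0.06 for Axin2 and −0.12 for Lef1, with overlapping groups. The difference between the limbs in this step, tested as an interaction, was −0.52 for Axin2 and did not pass (adjusted p = 0.0903). By adjusted p alone 3 of 9 genes were lower in the forelimb, beside 20.2% of all genes, and 1 of 9 in the hindlimb, beside 12.7%. None of the 9 was called in the 6 limb steps after E10.5 in limma. In the 3 forelimb steps 1.71%, 0.599% and 1.42% of all genes were called higher and 0.363%, 0.165% and 1.29% lower. In the 3 hindlimb steps 1.95%, 0.583% and 1.55% were higher and 0.368%, 0.242% and 0.396% lower. At an unadjusted p under 0.05 there were 2, 0 and 6 of 9 in the forelimb steps and 5, 2 and 3 in the hindlimb steps. Of all 18194 genes there were 5621, 3985 and 9865 in the forelimb steps and 6936, 5270 and 8155 in the hindlimb steps.

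By adjusted p under 0.001 alone, Fzd1, Lef1 and Axin2 were the 3 genes lower in the E13.5 than in the E12.5 forelimb. Each was lower by less than 2-fold, and the 3 were picked on these values. Ror2, which was lower against the E10.5 forelimb, is left out. Whether the 3 share a regulator was not tested. The promoters of the 3 are shown, from RefSeq on GRCm38.p6. Each runs 5′ to 3′ on the gene's strand, from 250 bases before to 50 bases after an annotated transcription start. Capitals mark CTTTGA or CTTTGT, the core letters bound by Lef1 and Tcf proteins, or their reverse complements TCAAAG and ACAAAG. Both strands were searched, and no 2 matches shared bases. Fzd1 lies at chr5:4758167-4758466 on the minus strand, Lef1 (the most downstream of its 4 annotated starts) at chr3:131156044-131156343 on the plus strand, and Axin2 at chr11:108920099-108920398 on the plus strand.
Fzd1: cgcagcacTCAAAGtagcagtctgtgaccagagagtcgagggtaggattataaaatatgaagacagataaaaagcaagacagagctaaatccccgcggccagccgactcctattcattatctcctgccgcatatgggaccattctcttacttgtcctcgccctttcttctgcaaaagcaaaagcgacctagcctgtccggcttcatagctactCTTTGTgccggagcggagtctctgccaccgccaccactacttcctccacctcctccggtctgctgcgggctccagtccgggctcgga
Lef1: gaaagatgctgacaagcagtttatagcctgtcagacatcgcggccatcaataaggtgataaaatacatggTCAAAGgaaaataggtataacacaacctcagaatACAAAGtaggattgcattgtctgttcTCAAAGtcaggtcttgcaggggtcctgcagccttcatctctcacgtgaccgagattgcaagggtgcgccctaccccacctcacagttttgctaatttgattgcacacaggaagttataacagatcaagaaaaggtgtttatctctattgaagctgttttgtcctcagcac
Axin2: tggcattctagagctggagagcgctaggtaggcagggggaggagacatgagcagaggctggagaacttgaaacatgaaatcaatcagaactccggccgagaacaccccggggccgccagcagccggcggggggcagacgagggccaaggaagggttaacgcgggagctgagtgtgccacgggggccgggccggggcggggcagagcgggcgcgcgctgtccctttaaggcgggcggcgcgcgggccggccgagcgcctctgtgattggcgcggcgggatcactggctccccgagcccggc

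The Fzd1 window held 2 matches and the Lef1 window 3, whereas the Axin2 window held none. The other 3 Lef1 windows held none either, so that the printed window is the only Lef1 window with a match. Those without a match begin upstream of it, at chr3:131110047, chr3:131110073 and chr3:131112541. Over all, 7 of the 10 genes were matched in the promoter table, with 12 windows. Of these windows 3 held a match, those printed for Fzd1 and Lef1 and that of Ror2. Of all 32851 promoter windows of this length, 31.2% held at least 1. A match is a description of the letters and does not show a bound site, and a window without one says nothing of the factor.

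Ror2, the receptor linked to Wnt5a, read 6.77, 6.42, 6.54, 6.42 and 6.64 in E13.5 forelimbs, against 7.27, 7.22, 7.46, 6.88 and 6.95 in E10.5 forelimbs. The groups did not overlap. Ror2 differed by −0.60 ± 0.12 (SE, adjusted p = 2.53e-05), and in the hindlimb it was −0.25 (adjusted p = 0.0889). Lrp6 was the gene with the opposite direction in the hindlimb, where it read 9.01, 8.92, 8.95, 8.21 and 8.73 at E13.5, against 8.33, 8.22, 8.15 and 8.33 at E10.5. Replicate 4 fell among the E10.5 hindlimbs and the other 4 lay above them. The difference was 0.50 ± 0.12 (SE, adjusted p = 0.00027), 0.64 without replicate 4, and 0.36 (adjusted p = 0.00482) where arrays were centred on their medians. Without any 1 of 5 other hindlimb arrays its adjusted p was 0.00123 to 0.00188. Probe set 1428500_at of Lrp6 read 10.08, 10.10, 10.23, 10.12 and 10.02 in E13.5 hindlimbs, against 9.12, 9.06, 8.93 and 9.15 in E10.5 hindlimbs. Replicate 4 was not low on it, and the groups lay about a unit apart. Probe set 1428500_at was called higher (1.05 ± 0.10 SE, adjusted p = 4.69e-12 in limma), and 1451022_at differed by −0.04 with replicate 4 included. On 1451022_at that replicate had the lowest reading of all late limb arrays (6.29). The difference of 1451022_at without it was not tested. In the hindlimb 1 of 19 probe sets was called higher and 2 lower over this span, beside 7.56% and 6.85% of all probe sets, and in the forelimb 0 higher and 1 lower, beside 6.27% and 6.5%.

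**Figure D4:**
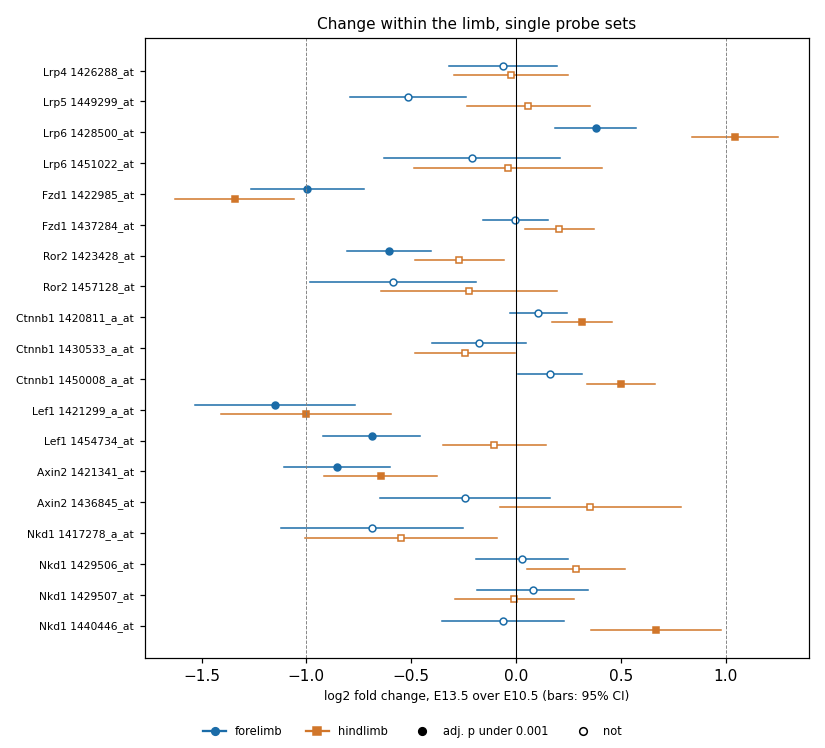
Log2 fold-change of E13.5 over E10.5 (horizontal axis) for the 19 probe sets in forelimb and hindlimb, with 95% confidence intervals. Filled points have an adjusted p under 0.001. Fzd1 1422985_at and Lef1 1421299_a_at lie near or beyond −1 in both limbs, and Lrp6 1428500_at lies at 1.05 in the hindlimb.

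Markers of other cell types moved over the same days. Of the cartilage markers 4 of 5 were called higher at E13.5 than at E10.5 in the forelimb and 5 of 5 in the hindlimb, with median differences of 3.08 and 3.82. Muscle markers were higher, 5 of 5 in each limb (7.16 and 5.38), and erythroid markers lower, 3 of 3 in each limb (−4.93 and −5.16). Limb mesenchyme markers were lower in the forelimb for 2 of 5 (median −0.94) and in the hindlimb for 0 of 5. The summed cartilage level was 13.54 to 13.84 in E13.5 forelimbs and 10.7 to 11.4 in E10.5 forelimbs, and the summed muscle level 14.8 to 14.9 and 6.73 to 9.66. The part of these shifts in the Lef1, Fzd1, Axin2, Ror2 and Lrp6 values was not tested.

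Forelimb and hindlimb of the same stage showed no called difference in any of the 9 genes. In limma 0 of 36 comparisons were called, and 6 had an unadjusted p under 0.05 (2, 0, 3 and 1 from E10.5 to E13.5). Of all 18194 genes, 4999, 2623, 4368 and 3171 had an unadjusted p under 0.05 at these stages. Of all genes, 0.418%, 0.313%, 0.462% and 0.236% were called higher in the forelimb at the 4 stages, and 0.148%, 0.0989%, 0.044% and 0.0495% lower. The log2 differences lay between −0.27 and 0.42, and the 95% intervals of all 36 lay between −0.51 and 0.71. Lrp5 at E10.5 had the greatest difference, 0.42 (95% interval 0.12 to 0.71, adjusted p = 0.0458). Lrp6 at E10.5 differed by 0.36 (0.12 to 0.59, adjusted p = 0.0343) and Fzd1 at E12.5 by 0.30 (0.15 to 0.46, adjusted p = 0.00761). A difference of 2-fold lay outside every interval, but smaller ones did not.

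Fzd1 at E12.5 read 9.28, 9.16, 9.19, 9.05 and 9.22 in forelimbs, against 8.98, 8.86, 8.92, 8.81 and 8.82 in hindlimbs. All 5 forelimbs lay above all 5 hindlimbs, by a small margin. Hindlimb development runs slightly behind that of the forelimb, so each forelimb stage was also set against the next hindlimb stage. Again 0 of 27 comparisons were called in limma (12 at an unadjusted p under 0.05), where 0.242%, 0.192% and 0.676% of all genes were called higher and 0.747%, 0.0879% and 0.786% lower. Over all genes 16934 of 54582 such tests had an unadjusted p under 0.05. Fzd1 in E12.5 forelimbs exceeded that in E13.5 hindlimbs by 0.83 (adjusted p = 1.30e-11), and its probe set 1422985_at, the 1 of 19 called, by 1.44, beside 1.78% of all probe sets called higher. Of the 27 tests that a stage step differed between the limbs, none was called in limma and 4 had an unadjusted p under 0.05, beside 8719 of 54582 such tests over all genes. Of all genes 0.181%, 0.022% and 0.033% were called with a higher forelimb step and 0.214%, 0% and 0.0495% with a lower one. The step of Lrp6 between E10.5 and E11.5 had the smallest adjusted p of the 27, 0.0589, for a forelimb minus hindlimb difference of −0.52.

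**Figure D5:**
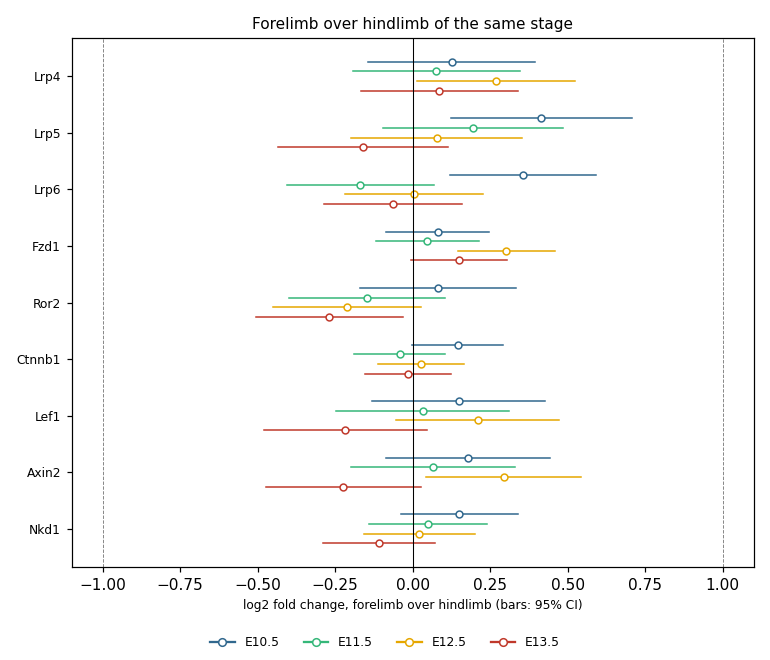
Log2 difference of forelimb over hindlimb (horizontal axis) for the 9 genes at E10.5, E11.5, E12.5 and E13.5, with 95% confidence intervals. All 36 values lie between −0.27 and 0.42, inside the 2-fold lines.

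Across all 14 groups, Lef1 had the widest span of group means (2.61), followed by Ctnnb1 (2.53), Lrp5 (1.95), Lrp6 (1.91), Lrp4 (1.76), Fzd1 (1.51), Axin2 (1.20), Ror2 (1.14) and Nkd1 (0.81), each a difference on the log2 scale. Lef1, Ror2 and Nkd1 were highest in E9.5 forelimbs, Lrp4 in E10.5 forelimbs, Lrp5 in E11.5 forelimbs, Fzd1, Ctnnb1 and Axin2 in E12.5 forelimbs, and Lrp6 in E13.5 hindlimbs. The lowest group was a whole-embryo stage for all 9. Neighbours in the order of means mostly overlapped, in 10 of 13 pairs for Ctnnb1, 11 for Lef1, Lrp5 and Fzd1, 12 for Lrp4, Lrp6 and Ror2 and 13 for Axin2 and Nkd1. For Lef1 the separate neighbours were E9.5 over E10.5 forelimb and E13.5 forelimb over E12.5 whole embryo. In whole embryos none of the 36 steps between successive stages was called in limma (13 at an unadjusted p under 0.05), where 0.44%, 0.544%, 1.89% and 2.92% of all genes were called higher and 0.115%, 0.0989%, 0.324% and 0.198% lower. Over all genes 19542 of 72776 such steps had an unadjusted p under 0.05. Ctnnb1 (0.50) and Fzd1 (0.69) were higher at E12.5 than at E11.5 by adjusted p under 0.001 alone. Without E11.5 replicate 1 they were 0.23 (adjusted p = 0.194) and 0.50 (adjusted p = 0.0161), and without E12.5 replicate 2 they were 0.37 (adjusted p = 0.031) and 0.51 (adjusted p = 0.00836), so that both lost this call.

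Of 67 other genes of the pathway, 65 were measured. They were listed by their place in the pathway, with earlier results of these data known. At E9.5, 5 of 65 were called higher in the forelimb and 1 lower, beside 2.08% and 1.61% of all genes. Cdx1 (2.17) and Daam2 (1.95) were among the 5, and Notum (1.51), Apcdd1 (1.20) and Myc (1.17), named after their values were seen, were the others, while Celsr1, a core planar polarity gene, was lower (−1.43). In the list of other targets 4 of 9 were thus higher. None of the 18 receptor, 17 cytoplasmic and 12 nuclear genes was called in limma. From E10.5 to E13.5, 12, 14, 8 and 7 of 65 were called higher in the forelimb and 3, 2, 4 and 4 lower, beside 10.49%, 11.7%, 8.52% and 5.54% of all genes higher and 3.44%, 3.64%, 5.44% and 8.12% lower. In the hindlimb 11, 14, 8 and 11 were higher and 4, 3, 4 and 4 lower, beside 9.77%, 11.8%, 7.11% and 6.1% of all genes higher and 3.41%, 3.95%, 5.43% and 8.35% lower. Several of these counts are near the share over all genes. Ptk7, a WNT co-receptor (3.78), and Tle5, a shortened Groucho relative (3.61), had the greatest differences among these, both at E10.5 in the forelimb, with Dvl2 at 2.90 in the E11.5 hindlimb. Celsr2 (−2.71), Frat2 (−2.37) and Fzd5 (−1.85) were lower in the E12.5 hindlimb. The comparisons from E10.5 on cross the array sets, so that limb and array set cannot be told apart in them. Ptk7, Tle5 and Frat2 had 1 probe set each, and Dvl2, Celsr2 and Fzd5 had 2 each.

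Between E10.5 and E13.5, 6 of 65 were called higher and 4 lower in the forelimb, beside 5.43% and 5.13% of all genes. In the hindlimb 9 were called higher and 0 lower in limma (50 at an unadjusted p under 0.05 in either direction), beside 5.99% and 5.16% of all genes. Of all 18194 genes, 11064 had an unadjusted p under 0.05 in the hindlimb. The forelimb counts are near the share over all genes. The Frizzled genes Fzd8 (2.55 in the forelimb and 2.57 in the hindlimb), Fzd9 (2.53 and 1.96) and Fzd4 (1.21 and 1.30) were higher at E13.5 than at E10.5 in both limbs, in the direction opposite to Fzd1. The inhibitor Apcdd1 was higher in both (1.30 and 1.37), and in the forelimb the secreted inhibitors Dkk1 (−1.41) and Notum (−1.15) were lower, as was Dvl2 (−1.04). The remaining gene of these 4, Fzd3 (−1.06), is named after its value was seen. Among nuclear genes Tle2, a Groucho co-repressor, was higher in both limbs (1.12 and 1.86), and Tcf7l2, a relative of Lef1 and Tcf7, in the hindlimb (1.30). Between forelimb and hindlimb of the same stage 0 of 65 were called in limma at any of the 4 stages, although 24, 11, 20 and 15 had an unadjusted p under 0.05 from E10.5 to E13.5. Of all 18194 genes, 4999, 2623, 4368 and 3171 did.

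Among the 38 limb arrays of E10.5 to E13.5, the genes whose levels followed Lef1 most closely were Stk24, Dusp4 and Prpf4 (Pearson r = 0.94, 0.93 and 0.93), and those nearest Fzd1 were Fxyd6, Errfi1 and Ift80 (0.94, 0.94 and 0.92). For Ctnnb1 they were Bmpr1b, S1pr3 and Dnmt3a (0.92 each), for Lrp6 Ro60, Atrx and Pank3 (0.90, 0.89 and 0.88) and for Axin2 Rnf19b, Pgm2l1 and Cacnb2 (0.87, 0.86 and 0.86). Ror2 was nearest Hoxa9 (0.82). The highest r was 0.75 for Lrp4 (Smagp), 0.76 for Lrp5 (Stk11ip) and 0.74 for Nkd1 (Glcci1). These are descriptions across arrays that share stage, litter and array quality.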

How the data were processed

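Total RNA of fore- and hind-limbs and whole embryos was labelled and hybridized to Affymetrix arrays. The Dap labelling control differed between the 2 array sets, and which labelling each set had is not known here. The authors repaired a small spatial flaw on 1 control array of E12.5 (Harshlight) and derived expression by RMA (version not given in the sources used here). The deposited values were linear intensities for 45101 probe sets, and log2 was taken here. Depth does not apply to arrays, and their number limits the precision.

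Of the probe sets, 35890 were in the platform gene table, 34958 with 1 symbol, 932 with several and 9211 with none. Probe sets of a gene were averaged, giving 18194 genes. One limma fit (version 3.58.1, R 4.3.3) held all 14 groups, with 37 residual degrees of freedom and Benjamini-Hochberg adjustment, and was tested on simulated data. A call needed a fold-change of at least 2 and an adjusted p under 0.001, as in the study's methods. Since limb replicates came from 1 litter, p-values measure only the spread between these samples. That spread is shared over all 14 groups and is not that of the compared groups alone.

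The 10 genes and all lists were chosen with earlier results of these data known. Every measured gene of the 10 is named; of each list of other pathway genes, up to 3 called genes with the greatest change in each kind of comparison are named, and others are named as chosen after their values were seen. Alternatives were quantile normalization, median centring, a low-signal filter, the probe set of highest mean, fits on the compared groups alone, array weights, other thresholds, a replicate block, the 2 conflicting labels and leaving out each array. Sequences are from RefSeq (GRCm38.p6).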

Additional observations from a re-analysis of the deposited data

Results flagged for a closer look

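Each of the 9 genes was looked at in each limb group of 4 or 5 arrays, 72 combinations of gene and group. In 6 of the 72, 1 array lay far from the rest of its group, where chance gives about 1 in 20. The genes share the same arrays, so the 72 are not independent and this rate is only a rough guide. E12.5 forelimb replicate 3 was flagged for both Lrp5 and Lef1. Lrp5 read 5.31 in E11.5 forelimb replicate 4 (others 5.60 to 5.62) and 4.96 in E12.5 forelimb replicate 3 (others 5.34 to 5.45). Lrp6 read 8.50 in E12.5 hindlimb replicate 2 (others 8.72 to 8.81). Lef1 read 8.22 in E12.5 forelimb replicate 3 (others 8.38 to 8.41). Ctnnb1 read 12.59 in E11.5 hindlimb replicate 4 (others 12.55 to 12.56) and 12.22 in E13.5 hindlimb replicate 4 (others 12.46 to 12.54). The last of these arrays was also the lowest E13.5 hindlimb for Lef1, Lrp6, Axin2, Fzd1 and Ror2. It had the widest Actb 3′ to 5′ gap of the E13.5 limb arrays (0.62, others 0.36 to 0.44) and the lowest array median (5.37, others 5.40 to 5.42). Their part in its values was not tested.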

How the results depend on the processing

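The count of 43 limb over whole-embryo calls among the 9 genes was 20 with the probe set of highest mean, 36 with quantile normalization or a low-signal filter and 40 to 45 without 1 array. Every Lrp5 reading lay under 6, the log2 level of that filter. By adjusted p alone all genes gave 56930 calls against 21183. Stage steps in the limb gave 9 calls among the 9 genes by adjusted p alone against 3 (3 without any 1 array), and 21423 against 3307 over all genes. E13.5 over E10.5 gave 1 with median centring, 1 with the probe set of highest mean and 7 by adjusted p alone, against 0 (0 without any 1 array), and 14979 against 3950 over all genes. Forelimb over hindlimb stayed at 0, with 174 calls over all genes on the compared groups alone, 1615 by adjusted p alone and 144 with the conflicting arrays grouped by their other label, against 322. Forelimb over next-stage hindlimb gave 1 and 5201 by adjusted p alone, against 0 and 497. Whole-embryo steps gave 2 by adjusted p alone, 0 to 1 without 1 array, against 0, and over all genes 26 (compared groups alone), 3273 (adjusted p alone) and 437 (array weights), against 1187. They gave 955 to 1727 without 1 array. The differences between limbs in a step gave, over all genes, 35 (compared groups alone), 177 (adjusted p alone), 178 (2-fold with an adjusted p under 0.05) and 43 (other label), against 91, and 68 to 116 without 1 array. Without 1 array the all-gene counts were 20572 to 22489 (limb over whole embryo), 3262 to 3351 (stage steps), 3880 to 4014 (E13.5 over E10.5), 296 to 340 (forelimb over hindlimb) and 464 to 531 (next-stage hindlimb). Without 1 whole-embryo array Axin2 at E9.5 ranged from −0.024 to 1.20 and Lef1 in whole embryos at E10.5 over E9.5 from −1.14 to 0.060, both changing sign. With the probe set of highest mean signs turned for Axin2 in the forelimb over whole embryo at E10.5 (−0.16) and E12.5 (−0.41) and at E10.5 over E9.5 (−1.02). They also turned for Ctnnb1 in the forelimb at E12.5 (−0.093) and E13.5 (−0.0070), in the hindlimb at E12.5 (−0.082) and at E10.5 over E9.5 (−0.023). For Fzd1 they turned in the forelimb at E12.5 (−0.46) and E13.5 (−0.33), at E10.5 over E9.5 (−0.28) and in the hindlimb at E13.5 over E10.5 (0.21). The cause was not tested. Median centring lowered the share of higher calls over all genes from 51.4% to 37.3% (forelimb E13.5 over E10.5) and from 53.7% to 40.3% (hindlimb), and quantile normalization from 75.3% to 56.7% (forelimb over whole embryo, E10.5) and from 56.3% to 39.4% (E9.5). Replicate numbers were not used to pair samples, since deviations of same-numbered forelimbs and hindlimbs correlated at r −0.11 to 0.35 over 18 pairs, with 9 over 0.1 (0 of 4 at E10.5, 2 of 4 at E11.5, 4 of 5 at E12.5 and 3 of 5 at E13.5), and 5 of 18 correlated best with their own number. A replicate block gave 44 limb over whole-embryo calls among the 9 genes, the added one being Axin2 in the E11.5 hindlimb (1.02), and 0 forelimb over hindlimb calls.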
